A study of Mus musculus with 6 samples.

Results

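MiR-802 and miR-1948 are mouse microRNAs that are each cut from a single hairpin, and the 4 mature arms of these 2 hairpins (miR-802-5p, miR-802-3p, miR-1948-5p and miR-1948-3p) were followed here in healthy liver of both sexes. They were picked by name from the deposited table of 1907 distinct mature miRNAs, because both hairpins are known to follow the growth hormone pattern in liver, and all 4 were found there. Earlier results of these data were known when they were picked. Small RNA was sequenced from whole liver of C57BL/6N mice at 12 weeks of age, 3 females and 3 males. All were littermates of normal weight and health on the same chow, the labels name no treatment or introduced allele, and all were sampled at the same hour of the day. The study concerns acute liver injury that depends on sex, so these libraries show the state of the liver before any injury. Growth hormone itself, its receptor and messenger RNAs were not analysed here.

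In rodents the pituitary of males releases growth hormone in separated pulses, while females have a more continuous supply. Hepatocytes read that difference through the transcription factor STAT5b, which sets many genes to a male or a female level after puberty. Earlier work on mouse liver describes miR-802 as a female-biased and miR-1948 as a male-biased member of this response. MiR-802 is also known for its increase in the liver of obese mice.

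Mature sequences were at hand for miR-802 but not for miR-1948, so the arms of miR-802 are shown. Both are RefSeq sequences on the plus strand of build GRCm38.p6, the assembly behind mm10, at chr16:93369737-93369758 for the 5p arm and chr16:93369775-93369796 for the 3p arm. Capitals mark the seed, bases 2 to 8, with which a miRNA recognises its targets.
miR-802-5p: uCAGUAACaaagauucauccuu
miR-802-3p: aCGGAGAGucuuugucacucag
The hairpin they come from, Mir802, spans chr16:93369720-93369816, and here capitals mark the mature arms.
Mir802: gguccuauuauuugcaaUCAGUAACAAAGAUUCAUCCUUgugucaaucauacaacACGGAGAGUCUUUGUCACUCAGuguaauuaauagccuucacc

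Both mature arms of miR-802 are 22 bases long and 16 bases of hairpin lie between them. RNAfold gave the 97-base hairpin a minimum free energy of -30.8 kcal/mol, and 16 bases of the 5p arm paired with the 3p arm in that fold. Among the 1738 mature entries of the RefSeq table, no miRNA of another hairpin shared the seed of either arm, and the closest mature sequence differed from each by 8 edits. The sequence table matched 2 of the 4 member names, those of miR-802.

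The hairpins sit in unlike genomic settings. No other GENCODE M21 gene overlapped Mir802 on either strand of chromosome 16. The nearest was the long noncoding RNA gene 1810044K17Rik on the same strand, from 93368239 to 93369029 and so 690 bases upstream, and the nearest protein-coding genes were Setd4, 213640 bases away, and Runx1, 543570 bases away. Mir1948 lies on the plus strand of chromosome 18 from 12714811 to 12714895 (mm10), inside an intron of Ttc39c in the same orientation and 5054 bases from its closest exon. The table places the 22-base miR-1948-3p at 12714862 to 12714883 and the 21-base miR-1948-5p at 12714825 to 12714845.

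Total counts were 3285249 to 5756418 in the female libraries and 4617647 to 16444674 in the male libraries, so that 1 count stood for 0.174 to 0.304 CPM (counts scaled to a library of 1000000) in females and for 0.0608 to 0.217 CPM in males. Levels below are CPM with library sizes adjusted by TMM, a scaling that lines up the bulk of the miRNAs. Hepatocyte miRNAs, which mark liver, were abundant in each library: 7 of them, led by miR-122-5p, summed to 395751 to 398873 CPM in females and 421465 to 466430 CPM in males. In whole liver, fewer cells of a type and less RNA per cell cannot be told apart. The labels number the samples through the males and then the females, and sex and that order cannot be told apart.

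Female liver held more of both arms of miR-802 and less miR-1948-3p than male liver, and the scarce miR-1948-5p also had lower values in females. Mean levels differed 4.89-fold for miR-802-5p and 4.53-fold for miR-802-3p in favour of females, and miR-1948-3p was 4.37-fold lower in females. In edgeR's quasi-likelihood test with Benjamini-Hochberg adjustment over 370 tested miRNAs (threshold 0.05), all 3 tested members passed, 2 higher and 1 lower in females. Of the 370, 6.76% passed (2.26% to 8.47% of those tested when a library was left out), 3.24% higher and 3.51% lower. The split of these calls, 12 higher and 13 lower, was 13 and 7 with no TMM factor and 7 and 19 with upper-quartile factors. The 3 are not independent, since 2 are arms of the same hairpin. The fourth, miR-1948-5p, was too low to enter the test: the filter asks for 1.93 CPM in at least 3 libraries, which it reached in 2, while the other 3 members reached it in all 6.

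MiR-802-5p, the major arm, had 2375, 2012 and 1963 counts in female replicates 1, 2 and 3 and 845, 305 and 1615 counts in male replicates 1, 2 and 3. Scaled to CPM these were 392, 557 and 560 in females and 134, 72.0 and 103 in males, which averaged 503 ± 95.9 CPM in female and 103 ± 30.9 CPM in male liver (SD, n = 3 each). The groups were far apart: the lowest female, replicate 1, stood 2.93-fold above the highest male, also replicate 1. The log2 fold change was 2.29 (SE 0.23, 95% interval 1.78 to 2.80; adjusted p = 0.000106, edgeR). Within a sex, the highest library exceeded the lowest 1.43-fold in females and 1.86-fold in males.

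MiR-802-3p, the minor arm of the same hairpin, had 453, 364 and 310 counts in the female replicates and 146, 77 and 268 in the male replicates. Its levels were 74.8, 101 and 88.4 CPM in females and 23.1, 18.2 and 17.0 CPM in males, a mean of 88.0 ± 13.0 CPM against 19.4 ± 3.23 CPM (SD, n = 3 each). Again every female library lay above every male library, the nearest pair 3.24-fold apart. The log2 fold change was 2.18 (SE 0.22, 95% interval 1.71 to 2.65; adjusted p = 0.000106, edgeR).

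MiR-1948-3p, the major arm of its hairpin, ran the other way, with 19, 18 and 13 counts in the female replicates and 98, 72 and 301 in the male replicates. In CPM it stood at 3.14, 4.98 and 3.71 in females and 15.5, 17.0 and 19.1 in males, averaging 3.94 ± 0.945 CPM in female and 17.2 ± 1.81 CPM in male liver (SD, n = 3 each). The lowest male lay 3.11-fold above the highest female. The log2 fold change was -2.16 (SE 0.26, 95% interval -2.72 to -1.59; adjusted p = 0.000288, edgeR), and in this fit 1 of the 370 tested miRNAs had a lower value, the X-linked miR-741-3p. The female value rests on 50 counts in all, the male value on 471.

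MiR-1948-5p, the minor arm, was counted 1, 3 and 5 times in the female replicates and 28, 10 and 30 times in the male replicates. Its level was 0.165, 0.830 and 1.43 CPM in females and 4.43, 2.36 and 1.91 CPM in males, or 0.807 ± 0.631 CPM in female and 2.90 ± 1.35 CPM in male liver (SD, n = 3 each). The groups did not overlap, but the closest pair, female replicate 3 and male replicate 3, differed only 1.34-fold. Pooling the counts of each sex over its adjusted library sizes, the ratio of female to male was 0.264 (95% exact interval 0.116 to 0.532, counting error only), that is 3.79-fold lower in females. On the log2 scale this ratio was -1.92, against -1.21 without female replicate 1 and -2.63 without female replicate 3. No edgeR test was made at the main settings. With no low-count filter edgeR gave an adjusted p of 0.0383, with a log2 fold change of -1.97. In the 5 fits that admitted it after a library was left out it did not pass, with an adjusted p of 0.0963 to 0.298 (edgeR).

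For all 4 members the sexes did not overlap. The same was true of 21.6% of the 370 tested miRNAs, which include the other 3 members but not the scarcer miR-1948-5p. With 3 animals against 3 an exact two-sided permutation test cannot go below p = 0.1, and it gave that value for each of the 4. Among all 370 tested miRNAs 5 (1.35%) had an absolute log2 fold change of at least 2: the 3 tested members, miR-741-3p and miR-7081-5p. Both of those non-members had low levels, 0.427 ± 0.355 CPM in female and 4.03 ± 0.458 CPM in male liver for miR-741-3p, and 2.69 ± 0.553 CPM in female and 0.590 ± 0.322 CPM in male liver for miR-7081-5p (SD, n = 3 each).

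**Figure D1:**
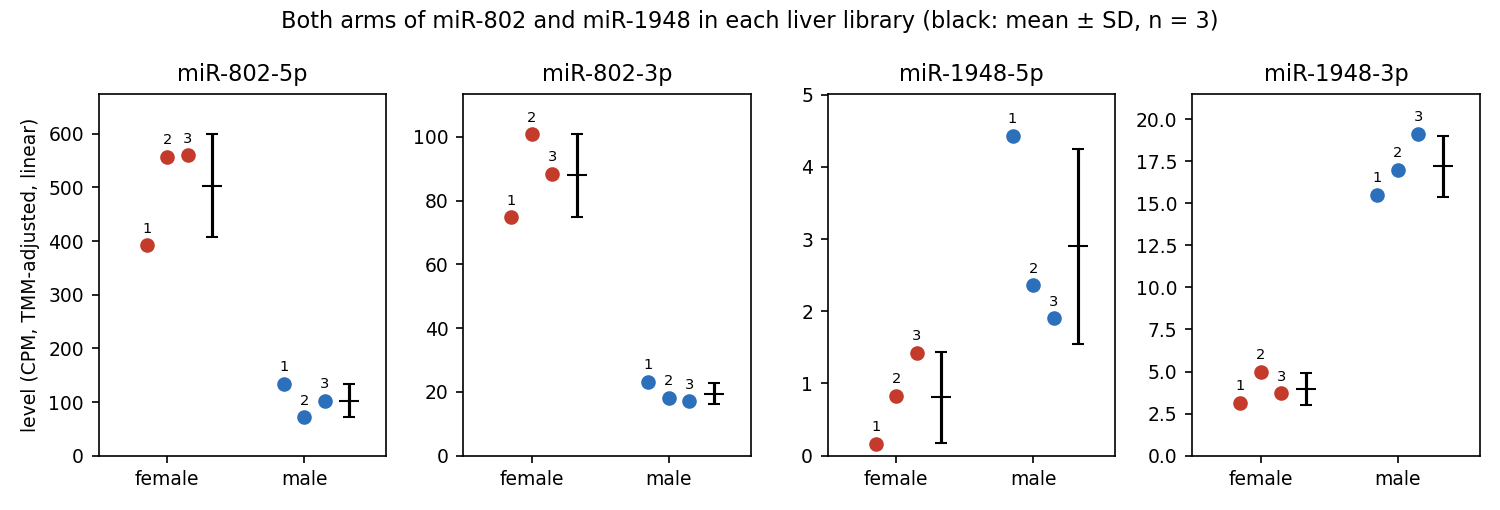
Level of each mature arm in CPM (linear axes that start at 0 and differ between panels) in the 3 female and 3 male liver libraries, numbered by replicate, with the mean ± SD in black. Both miR-802 arms are higher in every female than in every male library and both miR-1948 arms lower, with the smallest gap, 1.34-fold, for miR-1948-5p.

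**Figure D2:**
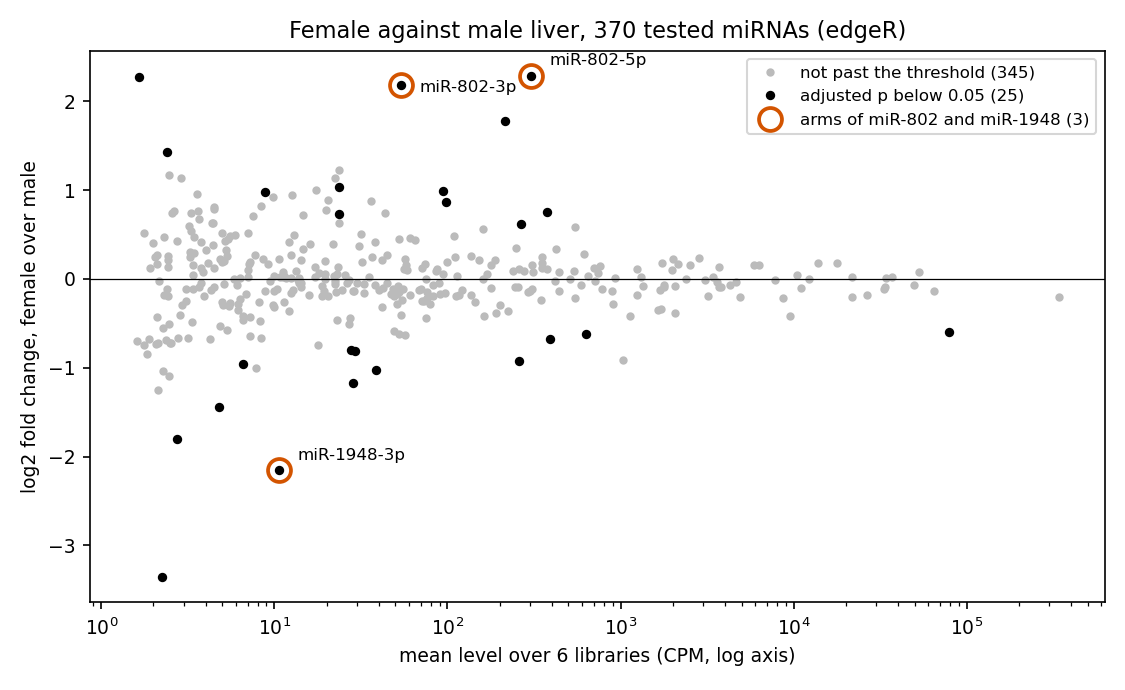
Log2 fold change, female over male, against the mean level over 6 libraries (log axis) for the 370 miRNAs tested with edgeR; each point is a miRNA, black points passed the threshold, and circles mark the 3 tested members. The miR-802 arms stand at 2.29 and 2.18 and miR-1948-3p at -2.16, while the median miRNA is at -0.01.

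The order of the members by level differed between the sexes in its middle. In females miR-802-5p came first, then miR-802-3p, miR-1948-3p and miR-1948-5p, and no neighbours in that order had overlapping libraries. In males miR-802-5p again led and miR-1948-5p was last, but miR-802-3p and miR-1948-3p, at 17.0 to 23.1 CPM and 15.5 to 19.1 CPM, overlapped. Ranked by level among the 1907 miRNAs, miR-802-5p took places 64 to 73 in females and 105 to 131 in males. MiR-802-3p ranked 121 to 125 in females and 191 to 207 in males. MiR-1948-3p moved in the opposite sense, at places 290 to 325 in females and 201 to 213 in males. Counts of different miRNAs also depend on how well each sequence is ligated into a library, so an order between miRNAs is one of counts.

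A ratio of counts within a library does not depend on how libraries are scaled. Female libraries held 125, 112 and 151 counts of miR-802-5p for each count of miR-1948-3p, and male libraries 8.62, 4.24 and 5.37. The mean log2 ratio was 7.003 ± 0.219 in females and 2.54 ± 0.522 in males (SD, n = 3 each), a difference of 4.46 or 22.1-fold (exact two-sided permutation test, p = 0.1, the smallest possible). The lowest female ratio had a 95% exact counting interval of 70.5 to 189, and the highest male ratio one of 6.99 to 10.7, so the sexes were separate beyond counting error in each library. The minor arm of miR-802 gave the same picture, with 23.8, 20.2 and 23.8 counts for each count of miR-1948-3p in females and 1.49, 1.07 and 0.890 in males.

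The abundant miRNAs that assays often use as references gave ratios with the same sense. MiR-191-5p outnumbered miR-802-5p 9.24, 6.49 and 6.72 times in the female libraries and 28.0, 59.0 and 36.2 times in the male libraries. For miR-103-3p the ratios were 8.32, 6.65 and 5.90 in females and 26.7, 51.7 and 27.6 in males, and for miR-16-5p 139, 99.7 and 96.7 in females and 365, 785 and 490 in males. Against the hepatocyte miRNA miR-122-5p, miR-802-5p was outnumbered 804, 567 and 565 times in females and 2568, 5377 and 3523 times in males. Female and male libraries did not overlap in any of these 4 ratios. Male replicate 2, the library with the lowest level of miR-802-5p, had the highest of each. All 4 ratios share miR-802-5p, so they are not independent of each other or of its level.

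**Figure D3:**
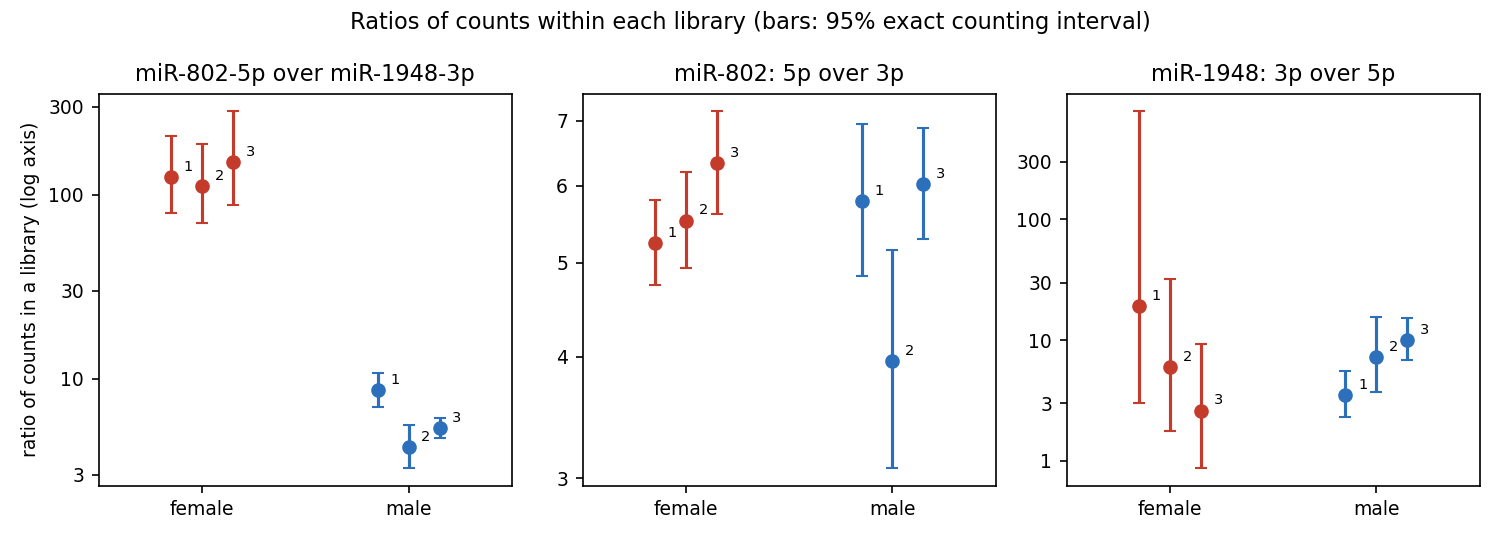
Ratios of counts within each library (log axes) for miR-802-5p over miR-1948-3p and for the major over the minor arm of each hairpin, with 95% exact counting intervals. The first ratio is 112 to 151 in females and 4.24 to 8.62 in males, whereas the arm ratios of the sexes overlap.

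The proportion of the 2 arms of miR-802 did not differ between the sexes beyond its spread. Counts of the 5p arm exceeded those of the 3p arm 5.24, 5.53 and 6.33 times in female replicates and 5.79, 3.96 and 6.03 times in male replicates. The mean log2 ratio was 2.51 ± 0.141 in females and 2.37 ± 0.334 in males, a difference of 0.14 that lay within the spread between replicates (SD, n = 3 each; exact two-sided permutation test, p = 0.7). Male replicate 2 was the lowest, with a 95% exact counting interval of 3.08 to 5.15 that overlapped those of female replicates 1 and 2 and of male replicate 1, and without it the difference was -0.06. For miR-1948 the 3p arm exceeded the 5p arm 19.0, 6.00 and 2.60 times in females and 3.50, 7.20 and 10.03 times in males, and these ratios rest on as little as 1 count of the 5p arm.

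The arms of miR-802 were set beside those of other hairpins. Of 92 hairpin names with both arms tested, the median absolute difference between the log2 fold changes of the arms was 0.17, and miR-802 had 0.11, with 31 of the 92 closer. Both arms passed the threshold for 2 of the 92, miR-802 and miR-455. The 5p arm held more counts in 50 of the 92 and the 3p arm in 42. The arms of miR-802 were less unequal than most, with a summed 5p to 3p log2 ratio of 2.49 against a median absolute ratio of 4.38, and 26 of the 92 were more even.

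The tested miRNAs whose profile over the 6 libraries lay nearest to a member were found by the root mean square difference of log2 CPM. Each profile was first centred on its own mean, and the comparison is a description with no test. A small count was added before the log2, which shrinks the differences of scarce miRNAs. Distances of scarce miRNAs therefore do not follow from their fold changes alone. To miR-802-5p, miR-802-3p stood at 0.22, and the median tested miRNA at 1.21. The nearest outside the hairpin was the p53-induced miR-34a-5p at 0.32, with 332 ± 18.1 CPM in female and 96.8 ± 25.5 CPM in male liver (log2 fold change 1.78, adjusted p = 0.00016, edgeR). Then came miR-377-3p at 0.60, miR-381-3p at 0.64, miR-7081-5p at 0.64 and miR-299a-5p at 0.71. Of these 5, miR-34a-5p and miR-7081-5p passed the threshold. MiR-377-3p, miR-381-3p and miR-299a-5p, all on chromosome 12, had log2 fold changes of 1.17, 1.14 and 0.94 (adjusted p = 0.132, 0.0557 and 0.0963, edgeR). Without female replicate 1 the adjusted p was 0.0144 for miR-381-3p and 0.017 for miR-299a-5p, and without male replicate 1 it was 0.03 for miR-381-3p. On all 6 libraries miR-381-3p also passed with no low-count filter (adjusted p = 0.00204, edgeR) and in DESeq2 (0.0106), and miR-299a-5p in DESeq2 (0.048).

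Nearest to miR-1948-3p were miR-7021-5p at 0.36, miR-741-3p at 0.38, miR-1903 at 0.57, miR-187-5p at 0.57 and miR-202-3p at 0.60, where the median tested miRNA stood at 1.07. Their log2 fold changes were -1.81, -3.36, -1.17, -1.25 and -0.95, and miR-187-5p alone did not pass (adjusted p = 0.128, edgeR). Both sets of 5 were picked by closeness over the same 6 libraries, with the sex difference included. A direction shared with the member therefore followed from the choice, and the calls are no separate evidence. None is encoded beside Mir1948. MiR-187-5p lies on the same chromosome, but its other arm, miR-187-3p, the closest tested miRNA to Mir1948, starts at 24429110 on the minus strand and had a log2 fold change of -0.11. Of the calls among these 10 profiles, miR-34a-5p and miR-741-3p held when any single library was left out. That of miR-7081-5p was lost without female replicate 2, female replicate 3 or male replicate 3 (adjusted p = 0.0552 to 0.0986, edgeR), that of miR-7021-5p without female replicate 1, female replicate 3 or male replicate 3 (0.0933 to 0.149), and that of miR-1903 without female replicate 2 or 3 (0.0892 and 0.103).

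**Figure D4:**
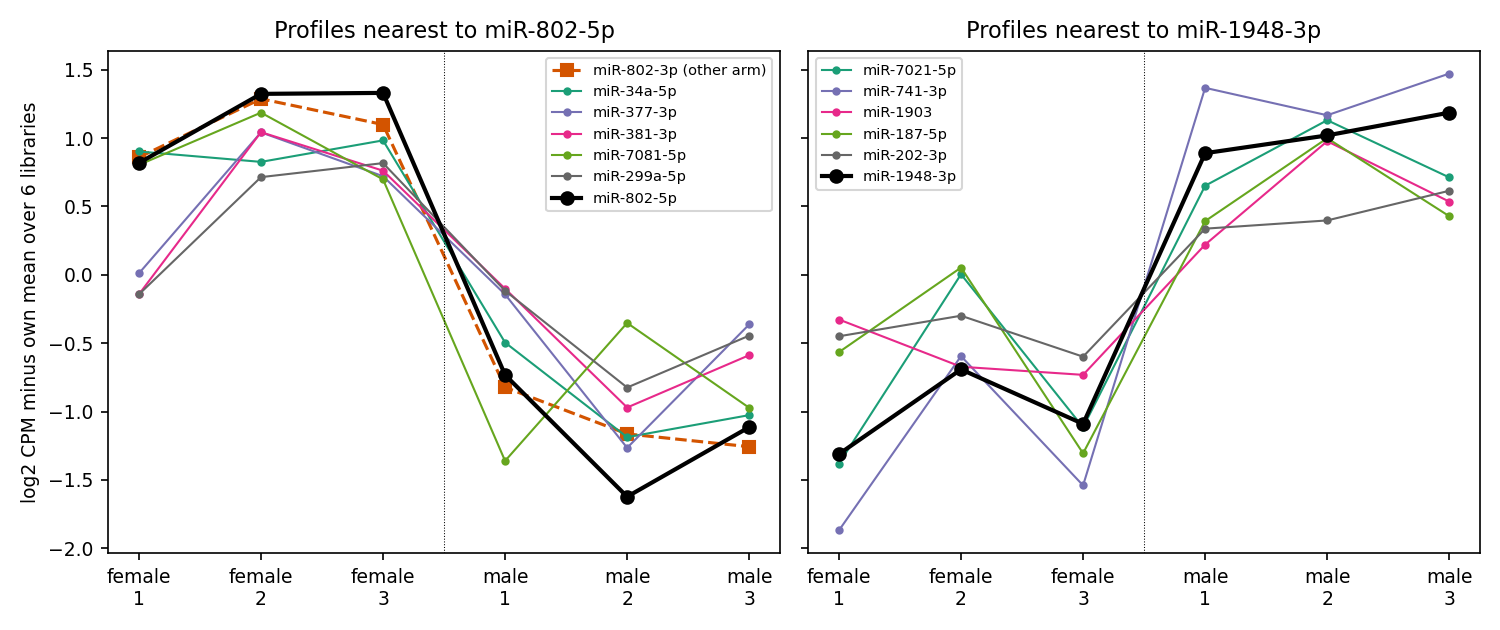
Log2 CPM, with a small count added before the log2, minus each miRNA's own mean over the 6 libraries. Shown are miR-802-5p with its other arm and its 5 nearest profiles (left) and miR-1948-3p with its 5 nearest (right). Lines join the libraries only to guide the eye. MiR-802-5p and miR-802-3p run together at a root mean square difference of 0.22, and miR-34a-5p follows at 0.32.

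Other miRNAs tied to the growth hormone axis had log2 fold changes of -0.95 to 0.43. In human cells miR-16-5p, miR-129-5p, miR-142-3p (miR-142a-3p in mouse) and miR-202-3p are reported to act on the growth hormone receptor. Of these 4 tested miRNAs 0 were higher and 1 was lower in females, with a median log2 fold change of 0.16 (0.06 with upper-quartile factors and 0.30 with no TMM factor) where all tested miRNAs had -0.01. MiR-202-3p was the lower one, at 4.48 ± 0.496 CPM in female and 8.61 ± 0.921 CPM in male liver (SD, n = 3 each; adjusted p = 0.0475, edgeR), and it passed in 6 of the 16 alternative fits that tested it, with an adjusted p of 0.0322 to 0.202 over the 16. Its call was lost when any library except male replicate 2 was left out. The others stood at 0.08 for miR-16-5p, which was -0.01 with upper-quartile factors, 0.43 for miR-129-5p and 0.24 for miR-142a-3p (adjusted p = 0.672, 0.547 and 0.44, edgeR).

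MiR-802 shares chromosome 16 with miRNAs that, like it, have human counterparts on chromosome 21. From a list of these and their close copies, 0 of 7 tested members passed in either direction, and 6 had negative values, with a median log2 fold change of -0.28 (-0.14 with no TMM factor). The eighth, miR-155-3p, had no count in any library. On chromosome 16 the values were -0.42 for miR-99a-5p, -0.43 for miR-99a-3p, -0.21 for let-7c-5p, -0.28 for miR-125b-2-3p and 0.25 for miR-155-5p, and the table places miR-125b-5p (-0.42) and let-7c-2-3p (-0.0021, but 0.13 with no TMM factor) elsewhere. MiR-125b-5p passed without male replicate 3 (adjusted p = 0.0367, edgeR), with no low-count filter (0.0403) and with upper-quartile factors (0.0363), as did let-7c-5p with those factors (0.0462). The closest tested miRNA to Mir802, miR-155-5p, starts at 84714143 and had 39.8 ± 7.18 CPM in female and 33.4 ± 4.31 CPM in male liver (SD, n = 3 each; adjusted p = 0.629, edgeR).

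Markers of the cells a liver piece can hold were compared beside the members. None of the 7 hepatocyte, 2 endothelial, 5 stromal, 5 biliary or 4 erythroid markers passed in either direction. MiR-122-5p, the most abundant of the hepatocyte markers, was close to the threshold, at 315840 ± 556 CPM in female and 364079 ± 22010 CPM in male liver (SD, n = 3 each; log2 fold change -0.21, adjusted p = 0.053, edgeR). It passed as lower in females in 5 of the 16 alternative fits that tested it, with upper-quartile factors (0.00763), DESeq2 size factors (0.0444), the filter of 50 counts (0.0445), no robust option (0.0458) and without male replicate 1 (0.0128), and its adjusted p over the 16 was 0.00763 to 0.46. The median log2 fold changes of these 5 lists were 0.12 for hepatocytes, -0.02 for endothelium, -0.21 for stroma, -0.22 for biliary epithelium and 0.18 for erythroid cells. In the same order they were 0.26, 0.11, -0.07, -0.09 and 0.30 with no TMM factor, and 0.03, -0.12, -0.31, -0.32 and 0.06 with upper-quartile factors. Of 6 leukocyte markers 1 was higher in females, miR-223-3p at 322 ± 56.6 CPM in female and 209 ± 13.7 CPM in male liver (adjusted p = 0.0467, edgeR), and the median was 0.30. That call held in 11 of 17 alternative fits and was lost without female replicate 2, female replicate 3 or male replicate 3 (0.133 to 0.273), with upper-quartile factors (0.107), with the 3 reference miRNAs (0.0657) and in limma-voom (0.0556). Summed leukocyte markers were 4043 to 4598 CPM in females and 2904 to 4458 CPM in males. At TMM-adjusted library sizes the stromal sums did not overlap, at 8918 to 11440 CPM in females and 12112 to 12799 CPM in males. Hepatocyte sums, given above, did not overlap at those sizes either, whereas endothelial, biliary and erythroid sums did. Over total counts without the TMM factors, both the stromal and the hepatocyte sums overlapped between the sexes. Of single tested miRNAs, 21.6% did not overlap at the TMM-adjusted sizes. All 5 stromal and 5 biliary markers had negative and all 6 leukocyte and 4 erythroid markers positive log2 fold changes. With no TMM factor 1 stromal and 1 biliary marker were positive, and with upper-quartile factors 1 leukocyte and 1 erythroid marker negative. An erythroid marker, 1 of the 4, was also negative without miR-122-5p in the library size and with the filter of 50 counts.

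Pancreas, which also makes miR-802, was checked through miR-375, miR-216a, miR-216b and miR-217. Of these 8 mature arms 2 had no count in any library, and 5 had at most 3 counts in a library. MiR-375-3p, the only one tested, had 29, 9 and 11 counts in females and 9, 5 and 21 in males, or 3.47 ± 1.19 CPM in female and 1.31 ± 0.123 CPM in male liver (adjusted p = 0.0438, edgeR), and it did not pass when any single library was left out (0.0557 to 0.22), with no low-count filter (0.0815), in DESeq2 (0.0716) or in limma-voom (0.0502). The 8 arms summed to 3.04 to 5.12 CPM in females and 1.65 to 2.36 CPM in males, against 392 to 560 CPM and 72.0 to 134 CPM of miR-802-5p. Like miR-802-5p, these sums were higher in every female than in every male library. Within females, the highest sum and the highest miR-375-3p count were those of replicate 1, which had the least of both miR-802 arms. The part of these cell types in the difference of the members was not tested.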

How the data were processed

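The deposited values are estimated counts for each mature miRNA, which were not normalised. Partek, Bowtie and mm10 are named in the submitters' processing notes, and a Qiagen miRNA library kit in the labels' protocols. Not given in the sources used here are trimming, multi-mapping and the use of molecular identifiers. Of 2045 rows, 138 exact repeats were left out. All 24 counts of the members were whole numbers, with no tolerance; of all values 98.9% were, and counts were rounded for testing. Libraries were grouped by the sex in their labels. EdgeR 4.0.16 (R 4.3.3) compared 3 female with 3 male libraries with TMM, filterByExpr (minimum count 10, minimum total 15) and the robust quasi-likelihood test, with no covariate, since the labels give no batch. The labels name littermates without their pairing, so the tests treat the animals as independent. The edgeR p-values rest on the spread between libraries, with information shared over the tested miRNAs. The test was also run on simulated counts, drawn with the same dispersion for every miRNA, unlike the real counts. Fold changes are female over male, and SEs are the log2 fold change over the root of F. Count intervals are exact at 95% and hold for counting error alone, because PCR copies are not independent molecules. Alternatives were other scalings (also to miR-16-5p, miR-103-3p and miR-191-5p), other filters, DESeq2 1.42.0, limma-voom (limma 3.58.1), repeated rows kept, a pseudocount of 1 in ratios and each library left out. Ratios used scipy 1.17.1, and the hairpin fold RNAfold 2.7.2 at its defaults.

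The members and lists were chosen with earlier results of these data known. The text names the members, the 5 tested profiles nearest to miR-802-5p and to miR-1948-3p, listed miRNAs past the threshold, and the growth hormone and chromosome 21 lists in full. The naming rule also took the 3 most abundant miRNAs of each marker list. Apart from miR-122-5p and the called markers these are given as counts, medians and, for some lists, sums, because no result turns on them. MiR-455 and miR-187-3p were named after their values were seen.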

Additional observations from a re-analysis of the deposited data

How the results depend on the processing

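The log2 fold changes of the 3 tested members held their direction and side of the threshold in all 17 alternative fits. Over 11 fits on all libraries, log2 fold changes were 2.18 to 2.42 for miR-802-5p, 2.08 to 2.31 for miR-802-3p and -2.25 to -2.02 for miR-1948-3p. With a library left out they were 2.09 to 2.48, 2.06 to 2.30 and -2.36 to -2.003, with adjusted p up to 0.000874, 0.000874 and 0.00272 (edgeR). The log2 ratio of summed miR-1948-5p counts was -2.0035 to -1.79 under other scalings and -2.63 to -1.21 with a library left out. In those fits that admitted miR-1948-5p after a library was left out, its adjusted p was 0.0963 to 0.298 (edgeR). The difference in the log2 arm ratio of miR-802 changed sign without male replicate 2, at -0.056, with a range of -0.056 to 0.25 over the left-out libraries, and that of miR-802-5p over miR-1948-3p was 4.24 to 4.75. With a pseudocount of 1 these 2 differences were 0.14 and 4.39.

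The count of 25 miRNAs past the threshold was 17 to 31 over the 11 fits on all libraries and 9 to 32 with a library left out: leaving out female replicate 2 gave 9, female replicate 3 gave 10 and male replicate 3 gave 12. The split of 12 higher and 13 lower became 13 and 7 with no TMM factor, 7 and 19 with upper-quartile factors and 8 and 11 with the 3 reference miRNAs. The median of all tested miRNAs moved to 0.13 with no TMM factor and to -0.10 with upper-quartile factors; relative to it, miR-802-5p stood at 2.29 and 2.28 and miR-1948-3p at -2.15 and -2.15. Among other named miRNAs, changes of sign were seen near 0: with no TMM factor let-7c-2-3p at 0.13 and miR-191-5p at 0.052, with upper-quartile factors miR-16-5p at -0.013 and miR-103-3p at -0.075, without miR-122-5p in the library size miR-103-3p at -0.010, with the filter of 50 counts miR-103-3p at -0.011, and with repeated rows kept let-7c-2-3p at 0.013. With a library left out, let-7c-2-3p was -0.12 to 0.046 and miR-103-3p -0.091 to 0.10. The cause was not tested. No paired analysis was possible because replicate numbers were given in accession order and pair no animals. Depth limits miR-1948-5p most, with 9 counts in females in all.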
